A study of Danio rerio with 12 samples.

Results

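Cells that glowed green and cells that did not were sorted from dissociated whole zebrafish (Danio rerio) embryos of the ETvmat2:GFP line, 24 h after fertilization, and the RNA of each sort was profiled as 1 library. ETvmat2:GFP is an enhancer trap line, in which a GFP insertion reports regulatory sequence near its landing site, here at the gene of the vesicular monoamine transporter. The submitters used it at 24 h because they place its early GFP in catecholaminergic neurons of the posterior tuberculum and of the locus coeruleus, and they state that at later ages it also marks several other populations. Both libraries come from embryos that carry the same transgene, and they differ in the sort gate, GFP negative or GFP positive cells. The labels do not state how many embryos were pooled. These 2 libraries were chosen by their titles and by the header of the matching table, and they are 2 of the 12 libraries of the series, which holds 6 such sorted pairs. With 1 library per gate there is no replicate and no test: the values below compare these 2 libraries with each other, and every interval covers counting error only.

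The vesicular monoamine transporter, the product of slc18a2, loads dopamine, noradrenaline, serotonin and histamine into synaptic vesicles and is made by monoamine cells of every kind. Tyrosine hydroxylase (th) and aromatic amino acid decarboxylase (ddc) make dopamine from tyrosine, and dopamine beta-hydroxylase (dbh) turns it into noradrenaline. At this age a zebrafish embryo also holds a beating heart tube, the first circulation, and primitive macrophages and neutrophils that arise from the anterior lateral mesoderm. NanoCAGE, the assay used here, copies and reads the capped 5′ ends of transcripts from small amounts of total RNA, so a read marks a transcript's start more than its length.

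The GFP-negative library held 1173909 exon reads and the GFP-positive library 918362. Reads fell on 14512 and 14995 of 32312 features, and the 4 features with most reads took 56.2% and 34.4% of all exon reads. Because of that unequal load, reads were scaled with TMM, a method that sets the bulk of genes equal, and every log2 ratio below is GFP-positive over GFP-negative on that scale with a prior count of 2. Scaling on the library totals would raise ratios without a prior count by 0.63. Of 7633 genes with at least 20 reads over both libraries, 22.5% were higher by 2-fold or more and 15.3% lower by 2-fold or more in the GFP-positive library. By 4-fold or more, 726 genes (9.51%) were higher and 246 (3.22%) lower. The median log2 ratio of all 7633 was 0.05, or 0.64 on library totals. In sorted bulk RNA, fewer cells of a type and less RNA per cell cannot be told apart. A gene that is high in 1 library passes the minimum more readily, so for most groups the reads summed over all its matched members, with no minimum, are given too.

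The label of the GFP-positive library as sorted catecholaminergic neurons was first set against the catecholamine genes. The gene th (chromosome 25, 24778671 to 24797839 on Zv9) had 15 exon reads in the GFP-positive library and 0 in the GFP-negative, and 7 of the 15 crossed an exon junction. For slc18a2 (chromosome 17, 23612151 to 23641139), the gene the line is named for, 9 exon reads stood against 0. Reads anywhere within slc18a2, introns included, were 24 against 0, and 3 crossed a junction. Against a floor of 3 reads in the GFP-negative library, th was at least 4.13-fold higher and slc18a2 at least 2.48-fold higher. Both genes were thus read in the GFP-positive library alone, at low counts. Because the leading genes of that library were those of blood, vessel and heart rather than of neurons, it is called the GFP-positive library throughout. The part of those other cell types in these low counts was not tested.

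The next enzymes of the pathway gave no exon read. For ddc there were 0 exon reads in either library and 4 reads over the whole gene in the GFP-negative library. For dbh there were 0 exon reads in either, with 10 reads over the whole gene in the GFP-positive library against 0. The dopamine transporter gene, listed as SLC6A3, likewise had 0 exon reads and 3 reads over the whole gene in the GFP-positive library. A count of 0 allows up to 3.27 reads in every 1000000 exon reads of the GFP-positive library and 2.56 of the GFP-negative, so lower levels were not detectable at this depth. Reads over the whole gene may belong to introns or to overlapping transcripts, which these columns do not tell apart.

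Tyrosine hydroxylase needs the cofactor tetrahydrobiopterin, and genes of its synthesis went in both directions. GCH1, for the entry enzyme GTP cyclohydrolase, had 8 reads in the GFP-positive library and 0 in the GFP-negative. Its relative gch2, which supplies pteridines to pigment cells, had 2 reads against 62 (log2 ratio -4.21, counting interval -8.31 to -3.32). PTS, for the following enzyme, went the same way with 0 reads against 19, at least 7.67-fold lower. The recycling genes pcbd1 and qdpra had 19 against 7 and 7 against 19 reads. Over the 22 matched genes for the enzymes, transporters and dopamine receptors of the pathway, 11 had no exon read and 3 reached 20 reads, of which 0 were higher by 2-fold or more and 2 lower by 2-fold or more. Their summed reads were 65 against 110 (log2 ratio -1.04, interval -1.50 to -0.58), with gch2 and PTS holding most of the GFP-negative reads. Exon reads made up 43.6% of reads within these genes in the GFP-positive library and 80.3% in the GFP-negative. Over all features these shares were 61.5% and 61.3%. With so few reads, the list's shares rest on a few genes.

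Transcription factors of catecholaminergic neurons did not share a direction. Of 27 matched diencephalic factors, 8 reached 20 reads, 0 were higher by 2-fold or more and 4 were lower by 2-fold or more, with a median log2 ratio of -1.24 (-0.64 on library totals, -0.33 over all members with a read) and summed reads of 242 against 411. The homeobox gene otpb, which specifies dopaminergic cells of the diencephalon, had 2 reads against 10, and its duplicate otpa had 7 against 7. Other members under 20 reads went both ways, with sim1a at 9 against 1, foxa2 at 8 against 2 and dlx2a at 1 against 10. The 4 lower members were all POU factor genes. They were pou3f3b (15 against 95), pou3f3a (26 against 74) and pou3f2 (14 against 45), all active widely in the early brain, and brn1.2 (4 against 19). The other members with 20 reads were within 2-fold. These were arnt2 (46 against 34), isl1 (17 against 9), etv5a (24 against 16) and etv5b (35 against 51). Among 14 matched noradrenergic regulators, with 130 reads against 141 in sum, gata2a, which is also a factor of blood and vessel precursors, had 20 reads against 1, a log2 ratio of 2.71 (interval 1.40 to 9.42). The neuroendocrine factor gene insm1a had 3 against 24 (-2.59, interval -5.65 to -1.56). The noradrenergic master regulator phox2a had 0 exon reads in both libraries. Of members under 20 reads, ret1 had 15 against 3 and ascl1a 0 against 6. Serotonergic and histaminergic genes, other users of the transporter, had 8 reads against 6 summed over 11 matched genes, of which 8 had no read.

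Pan-neuronal genes split within the list. Of 34 matched members 17 reached 20 reads, and 9 were higher by 2-fold or more against 2 lower by 2-fold or more. By 4-fold or more 4 were higher and 1 lower, against 9.51% and 3.22% of all genes considered. The median was 1.15, or -0.93 over members with at least 100 reads. Their summed reads nevertheless went the other way, 1195 against 1351 (log2 ratio -0.45, interval -0.57 to -0.34), a sum that turns to 0.18 on library totals. The early neuron gene elavl3, for an RNA-binding protein, had 116 reads against 186 (-0.95, interval -1.31 to -0.62), and stmn1b, for a tubulin-binding stathmin, had 20 against 78, of which 3 and 1 were unique. The adhesion gene alcama was higher, with 82 against 22. So were elavl4 (33 against 10), snap25a (31 against 10) and stmn2a (28 against 4). Members higher by 4-fold or more were stmn2a, atp1a3a (66 against 11), inab (27 against 1) and map1aa (21 against 1). The gene elavl3 stood at an RPKM of 22.8 in the GFP-positive library, and th at 6.75, where RPKM is the authors' deposited read density per exon length and library total. In 5′-end data a long transcript gathers no more reads than a short one, so such levels are rough.

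Many of the genes that set the GFP-positive library apart most were those of myeloid blood cells. The gene spi1 (chromosome 7, 33979183 to 33993855), for the PU.1 factor that commits cells to the myeloid lineage, had 296 reads against 0. The gene coro1a (chromosome 3, 31077483 to 31092481), for an actin regulator of leukocytes, had 305 against 0. In the macrophage and microglia list 22 of 28 matched genes had a read and 13 reached 20 reads. Of these, 10 were higher by 2-fold or more and 8 higher by 4-fold or more, with a median of 3.46. The median was 2.37 over all members with a read and 0.36 over those with at least 100 reads, so its size rested on which members were counted. It was 2.60 with the 4 members that had no GFP-negative read put at their bound. The gene mfap4, a marker of zebrafish macrophages, had 47 reads against 0, irf8, the factor that macrophages need to form, 22 against 0, and the chemokine receptor gene cxcr3.2 27 against 0. Only 5 of the 47 mfap4 reads were unique to that gene. Lower members were the lipoprotein genes apoc1l (18 against 121) and apoeb (34 against 68), which the yolk layer also uses. Summed, the list had 964 reads against 272 (log2 ratio 1.55, interval 1.35 to 1.75).

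Neutrophil genes had few GFP-negative reads. Of 17 matched genes of neutrophils and mast cells, 10 reached 20 reads, and 9 of these were higher by 4-fold or more. Their median was 3.89, or 3.55 with the 5 members without a GFP-negative read at their bound. The gene cebp1 (chromosome 24, 42403985 to 42411783), a C/EBP factor of maturing myeloid cells, had 135 reads against 0, of which 41 were unique. The collagenase gene mmp13a had 90 against 0, lyz for lysozyme 46 against 0, and mpx for the neutrophil peroxidase 43 against 0. These were at least 24.8-fold, 12.7-fold and 11.8-fold higher. The gene pgd, for an enzyme of the pentose phosphate pathway that most cells use, had the most reads of the list, 332 against 35. The sum over the list was 929 against 68 (log2 ratio 3.50, interval 3.14 to 3.87).

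Leukocyte machinery shared by both lineages went in 1 direction. All 26 members with 20 reads, of 37 matched, were higher by 2-fold or more and 22 higher by 4-fold or more. Summed reads were 2574 against 155 (log2 ratio 3.78, interval 3.54 to 4.02), or 0.280% of the GFP-positive library and 0.0132% of the GFP-negative. The gene syk, for a kinase behind immune receptors, had 67 reads against 0, ptpn6, the phosphatase that restrains such signals, 41 against 0, and DOCK2, an activator of the Rac GTPases that drive leukocyte migration, 118 against 0. The gene lcp1 (chromosome 9, 57977607 to 57985364), for the actin bundler L-plastin, had 472 against 3, and 205 against 0 by unique reads. The chemokine receptor gene cxcr4b, which many embryonic cells use, was the least one-sided of the 6 with most reads, with 118 against 25.

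The phagocyte NADPH oxidase makes the superoxide burst with which phagocytes kill microbes. Its membrane subunit gene cybb (chromosome 11, 30671995 to 30695011) had 130 reads and no GFP-negative read, at least 35.8-fold higher. The cytosolic organizer gene ncf1 (chromosome 5, 64495160 to 64508316) had 137 against 0, at least 37.7-fold higher. The gene rac2, for the GTPase of the complex in leukocytes, had 123 against 4 (log2 ratio 4.15, interval 3.27 to 6.56). Its widely expressed relative rac1 had 84 against 75 (-0.11, interval -0.58 to 0.36). Of 10 matched oxidase genes 5 reached 20 reads, with a median of 4.46, and over all members with a read the median was 0.94. The sum over the 10 was 541 against 94 (log2 ratio 2.25, interval 1.93 to 2.58). The reads of cybb, ncf1 and rac2 were thus one-sided, while the interval of rac1 included equal levels.

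**Figure D1:**
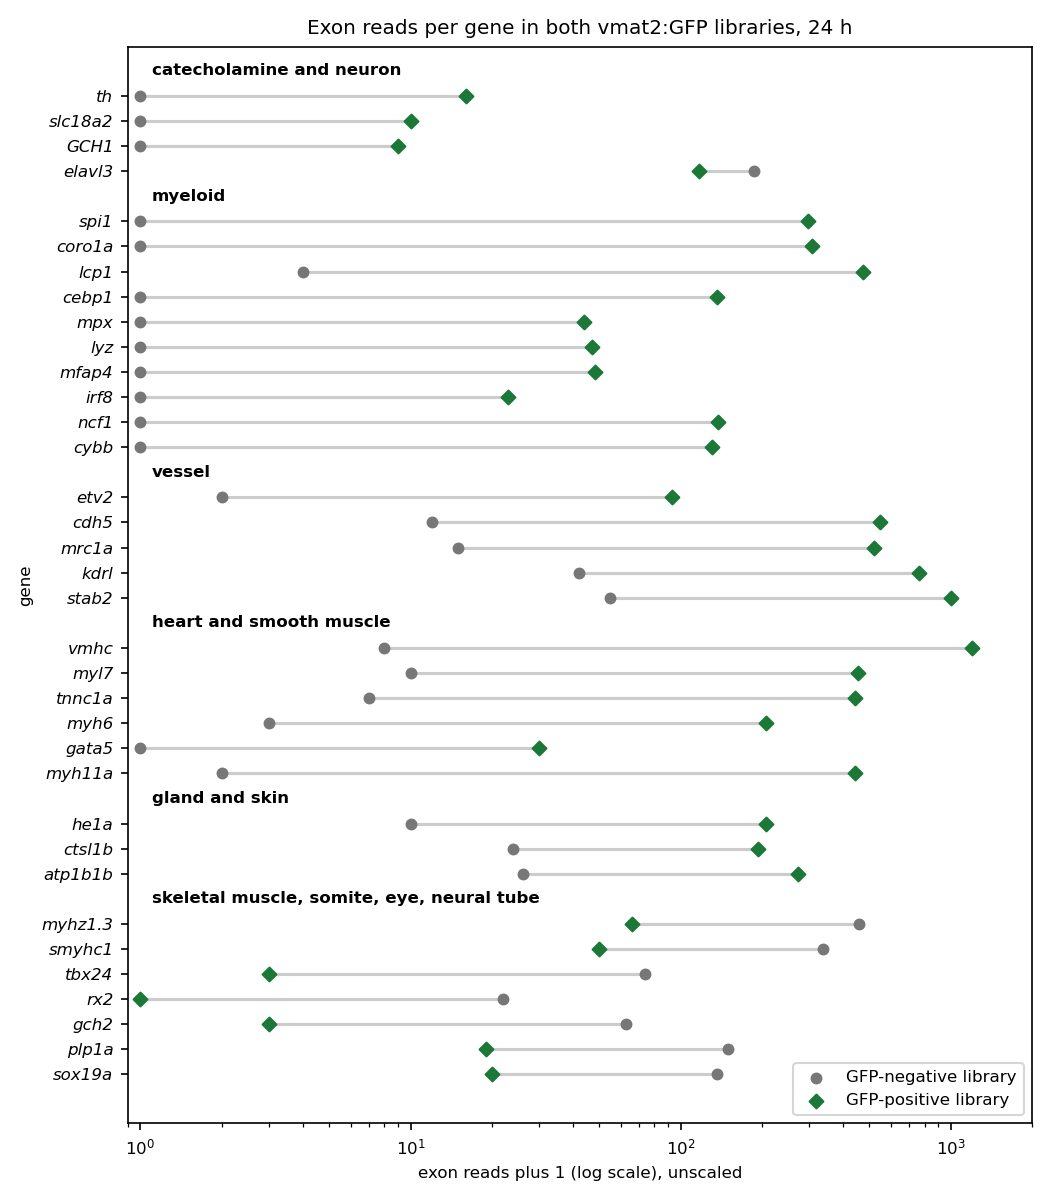
Exon reads of single genes, unscaled and plotted as reads plus 1 on a log axis, in the GFP-negative (grey circles) and GFP-positive (green diamonds) library, grouped by cell type or function. The myeloid genes spi1, coro1a, cebp1, mpx, lyz, mfap4, irf8, ncf1 and cybb sit at 0 reads in the GFP-negative library, and the bottom group lies on the other side.

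Blood vessel genes formed the second group. Of 50 matched endothelial genes 38 reached 20 reads, 27 were higher by 2-fold or more, 23 higher by 4-fold or more and 0 lower by 2-fold or more, with a median of 2.89. Summed over the list, 6700 reads against 950 (log2 ratio 2.54, interval 2.44 to 2.64) made up 0.730% of the GFP-positive library and 0.0809% of the GFP-negative. The gene cdh5 (chromosome 7, 45433470 to 45486203), for the cadherin of endothelial junctions, had 548 reads in the GFP-positive library and 11 in the GFP-negative (log2 ratio 5.15, interval 4.51 to 6.37). The scavenger and lectin receptor genes stab2 (1003 against 54), clec14a (827 against 43) and mrc1a (521 against 14) and the VEGF receptor gene kdrl (761 against 41) had ratios between 3.88 and 4.77. The Notch receptor gene notch1b, which neural progenitors also use, had 288 against 239 (-0.01, interval -0.26 to 0.25). All 38 considered endothelial members had a GFP-negative read, as did all but 138 of the 7633 genes considered. In the shared leukocyte list 10 of 26 had none.

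Factors of blood stem cells and of the haemangioblast, the shared precursor of blood and vessel, leaned the same way. Of 16 members with 20 reads 11 were higher by 2-fold or more, 7 higher by 4-fold or more and 1 lower by 2-fold or more, with a median of 1.85 and summed reads of 1397 against 427. The stem cell factor gene cmyb had 207 reads against 18 (log2 ratio 3.12), and the ETS factor genes fli1b and fli1a had 128 against 9 (3.31) and 116 against 10 (3.05). This list overlaps those above. Its members spi1 (296 against 0), etv2 (92 against 1), fli1a and fli1b, all higher by 4-fold or more, are also in the macrophage or endothelial list. Its median and sum are therefore not separate from theirs. The gene meis1, a homeobox factor gene used across the embryo, had 87 against 166 (-1.19). A separate entry, myb, had 36 against 42 (-0.47, interval -1.18 to 0.18). The genes tal1 (46 against 24, ratio 0.62) and lmo2 (53 against 24, ratio 0.82) were higher by less than 2-fold. Red cell and thrombocyte genes did not share this lead. Of 20 members 5 were higher by 2-fold or more, 2 lower by 2-fold or more and 0 past 4-fold, with a median of 0.35 and summed reads of 1256 against 968 (0.10, interval -0.02 to 0.22). Over all genes considered, 22.5% were higher and 15.3% lower by 2-fold or more. The embryonic globin gene hbbe3 had 33 against 40 reads, and slc4a1, for the red cell anion exchanger, 20 against 35 (-1.01).

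**Figure D2:**
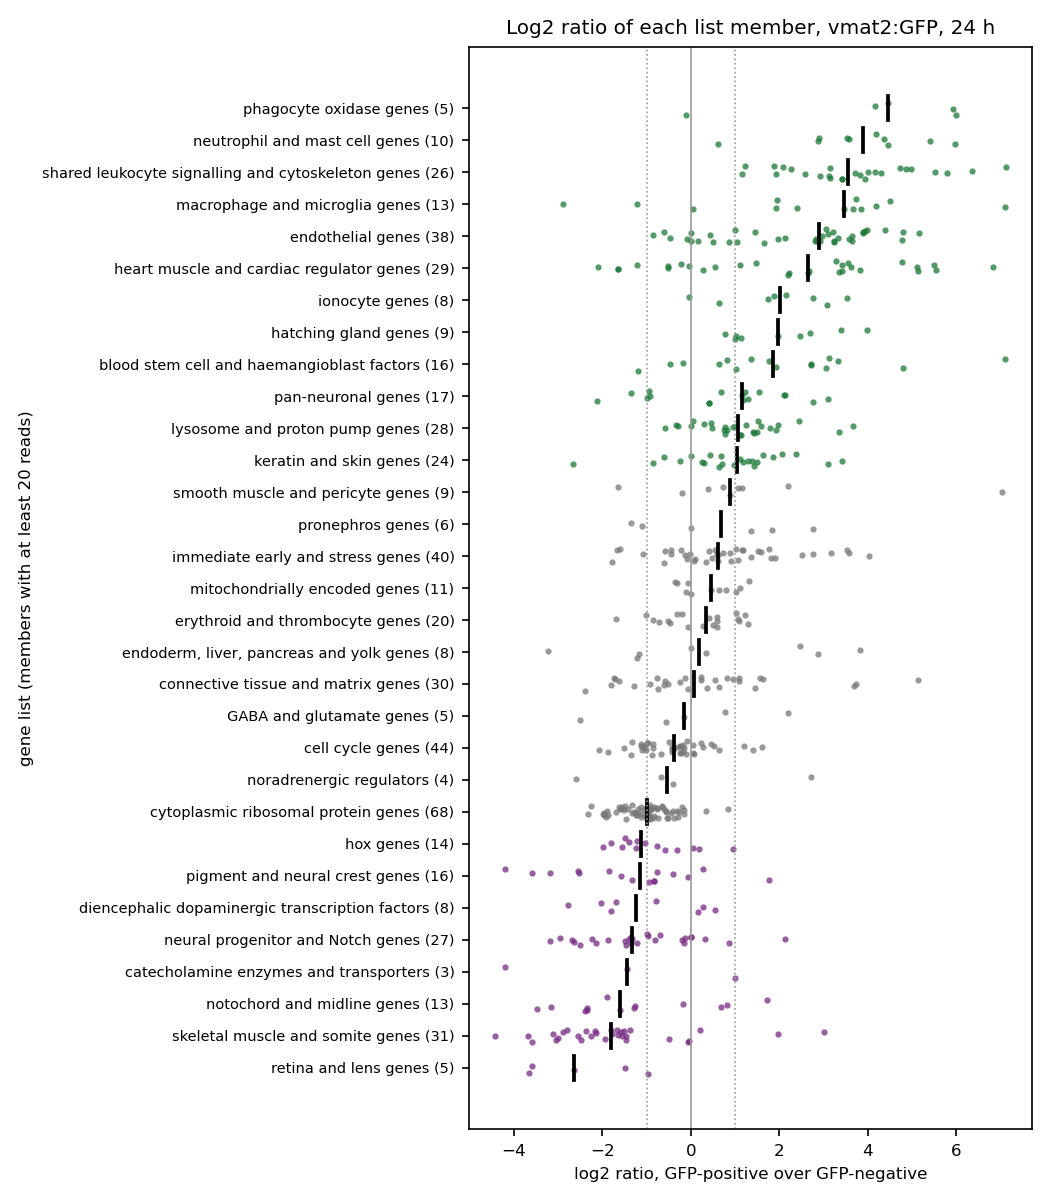
Log2 ratio (TMM scale, prior count 2) of each list member with at least 20 reads over both libraries, 1 point per gene, with the list median as a black bar and the number of members in brackets. Dotted lines mark 2-fold differences. Lists in green have a median higher by 2-fold or more, from the phagocyte oxidase genes (4.46) to the keratin and skin genes (1.04), and lists in purple a median lower by 2-fold or more, down to the retina and lens genes (-2.63). Over all members with a read these 3 medians were 0.94, 0.65 and -1.21.

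Heart muscle genes supplied the single most one-sided gene by its lower bound. The gene vmhc (chromosome 2, 23594235 to 23607626), for the ventricular myosin heavy chain, had 1202 reads against 7 (log2 ratio 6.82, interval 6.10 to 8.46). Its atrial counterpart myh6 had 206 against 2 (5.50), the cardiac light chain gene myl7 453 against 9 (5.12), and tnnc1a, for cardiac troponin C, 440 against 6 (5.55). Myosin genes of both chambers were thus one-sided. The cardiac regulator gata5, a factor of heart and endoderm precursors, had 29 reads against 0. The gap junction gene gja3 (20 against 0), ryr2b, a calcium release channel of the sarcoplasmic reticulum (21 against 0), and popdc2, a membrane protein of striated muscle (21 against 0), had no GFP-negative read either. Of 49 matched members 29 reached 20 reads, 19 were higher by 2-fold or more and 4 lower by 2-fold or more. The median was 2.64, and the sum 4900 against 1230 (1.72, interval 1.63 to 1.81).

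Members of the heart list that skeletal muscle also uses had lower ratios. Titin gene ttna had 904 against 618 (log2 ratio 0.27), its neighbour ttnb 11 against 45 (-2.10), and desma, for the muscle filament protein desmin, 7 against 22 (-1.65). Genes of skeletal muscle and somites made this contrast wider. Of 31 members with 20 reads 25 were lower by 2-fold or more, 14 lower by 4-fold or more and 2 higher by 2-fold or more, with a median of -1.80 and a sum of 652 against 2272 (-2.08, interval -2.21 to -1.95; -1.45 on library totals). The fast myosin gene myhz1.3 (chromosome 5, 33900114 to 33911998) had 65 reads against 455, though 15 and 98 of them were unique, since tandem myosin genes share sequence. The slow myosin gene smyhc1 had 49 against 335. The gene casq2, for the cardiac calsequestrin, was one of the higher members, with 25 against 1, and mef2a, a muscle transcription factor gene, the other, with 49 against 9.

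Smooth muscle genes did not follow 1 pattern. The gene myh11a (chromosome 6, 9215345 to 9296338), for the smooth muscle myosin heavy chain, had 441 reads and 1 GFP-negative read, a log2 ratio of 7.03 (interval 6.02 to 13.81), and stood among the 4 most one-sided genes by lower bound. Of 9 list members with 20 reads, 4 were higher by 2-fold or more and 1 lower by 2-fold or more. Summed reads were 1205 against 440, and 441 of the 1205 were those of myh11a. The broadly used tropomyosin gene tpm4 had 400 against 158, and notch3, a receptor of pericytes and of neural progenitors, 190 against 182 (-0.21, interval -0.52 to 0.09).

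Genes of surface glands and skin were also more frequent in the GFP-positive library. The hatching gland secretes the proteases that soften the chorion around the embryo. Its hatching enzyme genes he1a and he1b had 206 against 9 and 187 against 13 reads, although 28 and 16 of the GFP-positive reads were unique, since the copies resemble each other. The cathepsin gene ctsl1b had 193 against 23. Of 9 hatching gland members 8 were higher by 2-fold or more, 4 higher by 4-fold or more and 0 lower by 2-fold or more, with 985 reads against 174 in sum. Ionocytes are the ion-pumping cells of larval skin, and 6 of 8 members of their list were higher by 2-fold or more, with 859 against 244 in sum. The sodium pump subunit genes atp1b1b (272 against 25) and atp1a1a.2 (93 against 5) had ratios of 3.08 and 3.53.

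Keratins and junction genes of skin gave a smaller shift. Of 24 members 12 were higher by 2-fold or more, 4 higher by 4-fold or more and 1 lower by 2-fold or more, with a median of 1.04. Summed reads were 3808 against 2152 (log2 ratio 0.55, interval 0.47 to 0.62). The keratin gene krt4 of the outer periderm layer had 928 against 761 (log2 ratio 0.01, interval -0.13 to 0.15) and the keratin gene krt5 273 against 266 (-0.24, interval -0.49 to 0.01). The keratin genes krt8 (636 against 243, ratio 1.11) and krt18 (232 against 67, ratio 1.49), the pair used by simple epithelia, were higher.

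Genes of degradation and of the stress response were higher in part. Of 28 lysosome and proton pump genes 15 were higher by 2-fold or more and 0 lower by 2-fold or more, with a median of 1.06 (1.65 on library totals) and a sum of 1834 against 798. The gene lamp2, for a lysosomal membrane protein, had 104 against 39, the proton pump gene atp6v1ba 99 against 28, and ctsl1a, a cathepsin, 91 against 114 (log2 ratio -0.59). Of 40 immediate early and stress genes 16 were higher by 2-fold or more and 4 lower by 2-fold or more, with a median of 0.61 and a sum of 4597 against 2393. The mRNA decay factor gene zfp36l1a had 1029 against 283 (1.58), and the heat shock gene hsp90a.1, which somites express, 176 against 447 (-1.61).

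Lists of the neural tube, the eye and the neural crest were lower in the GFP-positive library. Of 27 neural progenitor and Notch genes 15 were lower by 2-fold or more, 7 lower by 4-fold or more and 1 higher, with a median of -1.34 (-0.76 on library totals) and a sum of 1371 against 2281. The gene plp1a, for a myelin proteolipid, had 18 reads against 149 (log2 ratio -3.18), the radial glia filament gene gfap 47 against 191 (-2.25), and sox2, a factor of neural stem cells, 88 against 145 (-0.98). The higher member was dll4, a Notch ligand gene of arteries, with 60 against 10 (2.12). Of 5 retina and lens genes 4 were lower by 2-fold or more, with 49 reads against 190 summed over the 55 matched genes, among them the eye field genes rx1 (1 against 30) and rx2 (0 against 21). Of 16 pigment and neural crest genes 8 were lower by 2-fold or more, with a median of -1.15 (-0.55 on library totals) and a sum of 597 against 1078. Against that direction, kita, a receptor kinase gene that blood cells and melanocytes share, had 55 against 12 (1.77).

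Notochord and midline genes were mostly lower by member and divided by sum. Of 13 members 9 were lower by 2-fold or more and 1 higher by 2-fold or more, with a median of -1.59. The collagen genes col2a1a (29 against 133), col9a2 (17 against 79) and col9a1 (31 against 100) were lower, and lamc1, a laminin chain of basement membranes in general, was higher, with 368 against 171. The summed reads were 861 against 1008 (log2 ratio -0.50, interval -0.64 to -0.37), and 0.13 on library totals. Of 14 hox genes, which pattern the trunk along its axis, 8 were lower by 2-fold or more and 0 higher by 2-fold or more, with a median of -1.14 (-0.57 on library totals) and a sum of 257 against 423. Ribosomal protein genes had a median of -0.99 over 68 members, 33 of them lower by 2-fold or more, and -0.37 on library totals, with summed reads of 9789 against 14653. The cell cycle list had a median of -0.39 that turned to 0.23 on library totals, with summed reads of 9162 against 12076.

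**Figure D3:**
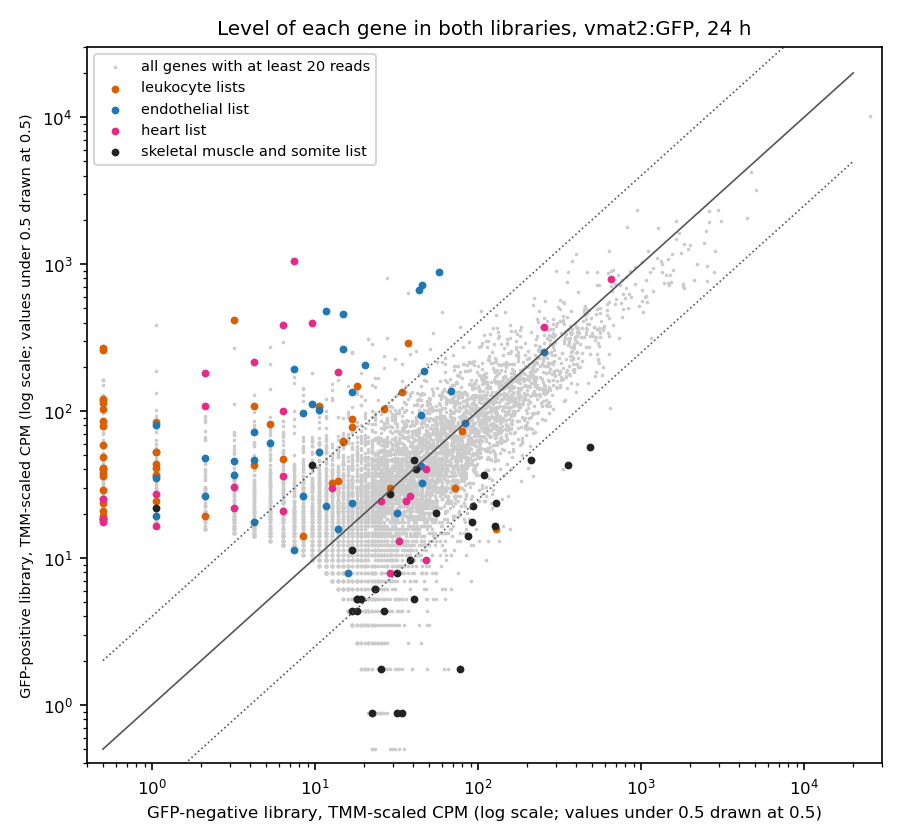
TMM-scaled CPM (reads relative to library size) of the 7633 genes with at least 20 reads, GFP-negative on the x axis and GFP-positive on the y axis, both log scales with values under 0.5 drawn at 0.5. The solid line marks equal levels and the dotted lines 4-fold differences. Many leukocyte genes line the left edge, where the GFP-negative library had no read, many endothelial and heart genes lie above the upper dotted line at higher levels, and most skeletal muscle and somite genes lie below the solid line.

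Apart from the listed groups, the 25 genes with the highest lower bound of the ratio included further genes of blood and immune cells. The gene samsn1a, for an adaptor of haematopoietic cells, had 186 reads against 0, card9, for an adaptor behind receptors for fungi, 147 against 0, and il6r, the interleukin 6 receptor gene, 111 against 0. FMNL1 (1 of 2), a formin of leukocytes, had 213 against 1, and plxnc1, a semaphorin receptor gene, 307 against 3. The coagulation factor gene f5 had 171 against 0, the nucleoside transporter gene SLC29A1 (2 of 2) 187 against 0, and abcb9, a lysosomal peptide transporter gene, 116 against 0. In all, 138 genes with 20 or more reads had no GFP-negative read, and 8 had no GFP-positive read. At the opposite end stood the segmentation gene tbx24 (2 against 73), gch2, tpbgl (2 against 58), the aldehyde oxidase gene aox3 (0 against 31), actn3b, an actinin of fast muscle (1 against 32), and sulf2, a sulfatase of heparan sulfate (8 against 85).

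The other columns of the table describe how these reads lay. Unique reads were 89.3% of exon reads in the GFP-positive library for the shared leukocyte list, 98.2% for the endothelial list, 92.6% for the heart list and 48.7% for the hatching gland list, against 69.8% over all features. Reads across exon junctions were 16.4%, 11.4%, 7.29% and 25.1% of exon reads in those lists, and 8.41% over all features. With unique reads in place of all exon reads, 675 genes were higher by 4-fold or more and 199 lower by 4-fold or more.

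The nearest pairs in the series by age and assay were set beside these values: otpb:GFP cells at 24 h, made with the same assay, and th:Gal4 UAS:GFP cells at 36 h, made by sequencing of amplified mRNA. The library columns of those tables carry no gate, so their reads were recovered from the difference and fold columns of the authors' deposited table, with the direction those columns have in the vmat2 table. If a table used the opposite convention, its directions would turn. At 36 h the noradrenaline enzyme gene dbh had 204 reads against 4 (log2 ratio 5.64, interval 4.94 to 8.21) by the authors' deposited table, ddc 107 against 24 and th 44 against 18, all higher on the side taken as GFP-positive, while slc18a2 had 0 against 8. In the authors' deposited table for otpb, slc18a2 had 5 against 0 and th 1 against 0, too few reads to check that direction. In the authors' deposited table for otpb, 11.0% of 6620 genes were higher by 2-fold or more and 19.5% lower by 2-fold or more in the GFP-positive library. For the 36 h pair 2881 of 16073 (17.9%) were higher and 2432 lower by 2-fold or more.

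Myeloid genes did not share 1 direction in the other pairs. The gene coro1a had 1 read against 14 in the authors' deposited table for otpb and 189 against 1072 (log2 ratio -1.85, interval -2.09 to -1.63) in that for 36 h. For cybb the authors' deposited table gave 1 against 36 in the otpb pair and 13 against 118 at 36 h. The otpb count of coro1a is under the minimum of 20 reads. Other genes were not lower by 2-fold in the authors' deposited table for otpb. There spi1 had 9 against 17 (log2 ratio 0.10), lcp1 13 against 28 (-0.07), rac2 9 against 7 and cxcr4b 26 against 10 (2.14). At 36 h spi1 had 140 against 405 (-0.88) and lcp1 63 against 650 (-2.69) by the authors' deposited table. Of 7 macrophage genes with 20 reads in the authors' deposited table for otpb, 4 were lower by 2-fold or more and 0 higher. The 23 at 36 h had a median log2 ratio of -0.93 by the authors' deposited table, with 11 lower by 2-fold or more and 1 higher. Of the shared leukocyte genes in the authors' deposited table, 1 of 7 was higher by 2-fold or more and 0 lower for otpb (median -0.04), and 5 of 31 were higher and 14 lower at 36 h (median -0.30). Their summed reads in the authors' deposited table, unscaled, were 157 against 309 for otpb and 159785 against 105575 at 36 h. The TMM-scaled library sizes, GFP-positive against GFP-negative, were 575610 against 1176634 for otpb and 17608094 against 27589375 at 36 h. The otpb sums thus stood nearly in proportion to TMM-scaled library size. At 36 h the library with the smaller scaled size held the larger sum, although 14 members were lower by 2-fold or more and 5 higher. Before scaling, the GFP-positive library at 36 h was the larger, with 22779177 reads against 21326333. Neutrophil genes had medians of 0.40 over 2 members for otpb and 0.10 over 15 at 36 h by the authors' deposited table. Vessel genes differed from the otpb pair likewise. The gene kdrl had 22 against 185 (log2 ratio -1.98) and mrc1a 3 against 134 (-3.95) in the authors' deposited table for otpb, where 15 of 28 endothelial genes were lower by 2-fold or more and 0 higher. These differences between pairs have no replicate and were not tested.

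Heart genes were high in more than 1 pair. The gene vmhc had 105 reads against 102 in the authors' deposited table for otpb (interval of the log2 ratio 0.67 to 1.48) and 6018 against 8 (9.82, interval 9.22 to 11.42) in that for 36 h. The gene tnnc1a had 47 against 19 (2.19) and 674 against 1 (8.26) in the authors' deposited table for otpb and for 36 h. Of 42 heart genes in the authors' deposited table for 36 h, 29 were higher by 2-fold or more, and of 19 for otpb, 6 were higher and 5 lower. The smooth muscle gene myh11a had 4 against 29 in the authors' deposited table for otpb (log2 ratio -1.54, interval -3.80 to -0.32). In that for 36 h it had 24 against 46 (-0.27, interval -1.07 to 0.45), an interval that includes equal levels. Hatching gland genes were higher in all 3 pairs by median, at 1.96 in the vmat2 pair, 0.98 in the otpb pair and 1.42 at 36 h by the authors' deposited table. Ionocyte genes had medians of -1.26 for otpb and 2.43 at 36 h by the authors' deposited table. Keratin and skin genes had 0.72 and 2.49, with 34 of 43 members higher by 2-fold or more at 36 h.

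**Figure D4:**
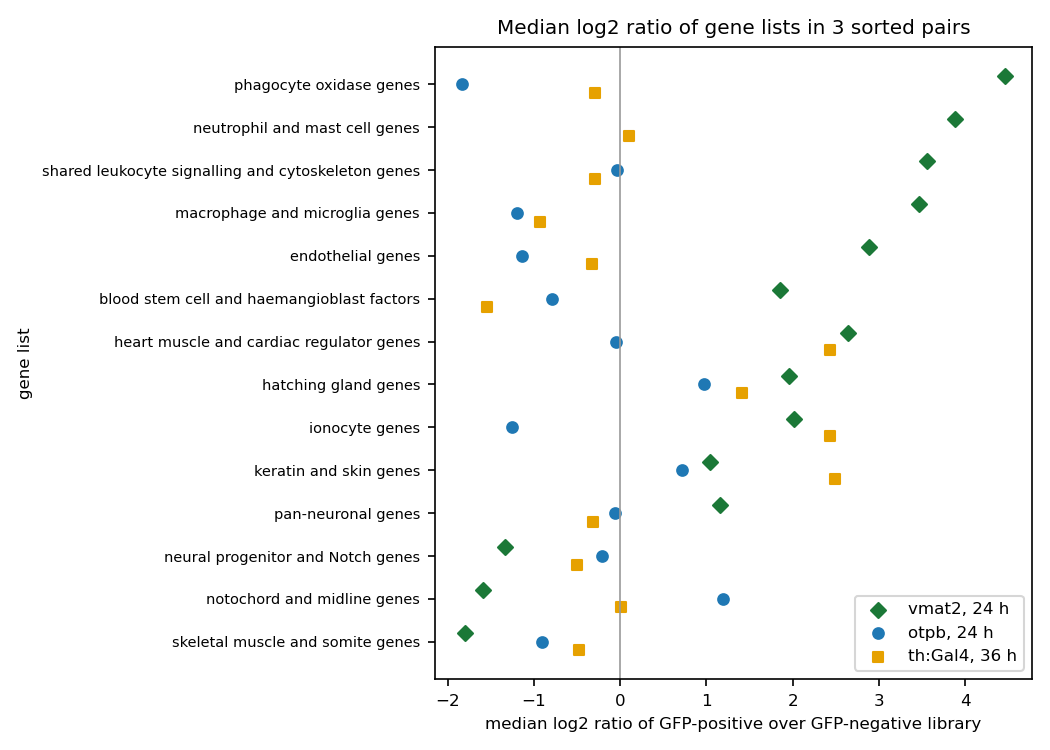
Median log2 ratio of 14 gene lists in the vmat2 pair (green diamonds) and, from reads recovered from the authors' deposited table, in the otpb pair at 24 h (blue circles) and the th:Gal4 pair at 36 h (yellow squares), for lists with at least 3 members of 20 reads. The leukocyte and endothelial lists are above 2.8 in the vmat2 pair alone, and the heart list is above 2.4 in the vmat2 pair and at 36 h.

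Of the 726 genes higher by 4-fold or more in the vmat2 pair, 318 had 20 reads in the otpb pair by the authors' deposited table, and 59 of them (18.6%) were higher by 2-fold or more there and 94 (29.6%) lower by 2-fold or more. Over all 5909 genes with 20 reads in both, these shares were 10.5% and 17.4%. At 36 h, 632 of the 726 had 20 reads by the authors' deposited table, 161 of them (25.5%) higher by 2-fold or more and 106 (16.8%) lower by 2-fold or more, against 10.7% and 10.9% of all 7337. Of the 246 genes lower by 4-fold or more in the vmat2 pair, 183 had 20 reads in the authors' deposited table for otpb, 15.3% of them higher and 23.5% lower by 2-fold or more. At 36 h the authors' deposited table gave 227 of the 246, 11.0% higher and 18.9% lower. In the otpb pair lower genes thus outnumbered higher ones in both sets, as they did over all genes.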

How the data were processed

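RNA of FACS-sorted GFP-positive and GFP-negative cells was processed for NanoCAGE, per the labels' protocols. Per the file headers the authors deposited, for both libraries, whole-number counts of total exon, unique exon, exon-junction and whole-gene reads and RPKM values, with positions on Zv9. The aligner is not given in the sources used here. The authors also deposited a difference and a signed fold change of RPKM in every table, treated here as a score. Columns of library values that could not be tied to a sample (174) were not used. From the other 2 tables whole reads were recovered from those columns, and in all 6 libraries so treated 100% of nonzero values fell on a whole number to within 0.02. In the vmat2 table the recovered reads equalled the deposited ones in 17237 of 17237 features. Features with equal levels give no read there.

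Counts were scaled with TMM (edgeR 4.0.16, R 4.3.3; GFP-negative library as reference), and log2 ratios used a prior count of 2. Intervals are exact Clopper-Pearson 95% intervals of the read ratio, without a prior count, from scipy 1.17.1. Reads without molecular identifiers are not independent molecules, so intervals and floors cover counting error only. Where a library had no read of a gene, 3 reads stood in for it, and such a fold is a lower bound that leaves out the error of the other library. The calculation was checked on simulated data, in which both libraries shared 1 set of levels apart from features changed by known folds. Those data held neither the unequal load of the 4 leading features nor repeated reads of a molecule. The check therefore does not bear on the scaling or the intervals under those conditions. Calls were 2-fold or 4-fold differences among genes with at least 20 reads over both libraries.

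The libraries, the 33 gene lists, the rule for named genes and the alternatives were chosen with earlier results of these data known. Of 1274 list symbols 1102 matched a feature, 145 of them by synonym or gene ID, and some genes are in more than 1 list. S6 kinase genes were dropped from the ribosomal name pattern after the values were seen. Genes named were the 25 with the highest lower bound and the 15 with the lowest upper bound of the ratio (features with clone-style names left out of the text), a few fixed catecholamine and neuron genes, up to 6 members of each list with most reads, members that went against their list, and members with no read in 1 library and 20 in the other. Some genes under this rule are not reported here. GCH1, otpa, phox2a, elavl4, snap25a, stmn2a, sim1a, foxa2, dlx2a, ret1, ascl1a, myb, tal1 and lmo2 were named after their values were seen. So were tubb5, zgc:123194, atp1a3a, inab, map1aa, brn1.2, arnt2, isl1, etv5a, etv5b and etv2. Alternatives were library totals in place of TMM, totals without the 4 leading features, minima of 100 reads and of 1 read, unique reads, whole-gene reads and a prior count of 0.5. Promoter sequences were not analysed here.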

Additional observations from a re-analysis of the deposited data

Results flagged for a closer look

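For 6 lists the members of the vmat2 pair and those of another pair lay mostly on opposite sides, by medians whose difference was not tested (1 library a group, directions of the other pairs taken from the vmat2 convention, reads recovered from the authors' deposited table). Against the otpb pair, the phagocyte oxidase genes had a median log2 ratio of 4.46 in the vmat2 pair and -1.84 in the authors' deposited table for otpb, over 5 and 4 members with 20 reads. The members counted differ between pairs, and over all members with a read the oxidase median in the vmat2 pair was 0.94. The macrophage and microglia genes had 3.46 over 13 members and -1.20 over 7, the endothelial genes 2.89 and -1.14, and the ionocyte genes 2.01 and -1.26. The notochord and midline genes went the other way, with -1.59 and 1.19. Against the 36 h pair, the blood stem cell and haemangioblast factors had 1.85 and, by the authors' deposited table, -1.55. The ionocyte median at 36 h, 2.43 by the authors' deposited table, lay on the vmat2 side.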

How the results depend on the processing

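No paired analysis was possible because each gate has 1 library. The 726 and 246 genes at least 4-fold higher and lower became 1177 and 109 on library totals, 133 and 31 of 2343 at a minimum of 100 reads, and 1332 and 643 of 17237 at a minimum of 1 read. Different minima change how many genes are considered, and otherwise the cause was not tested. Lists with a median at least 2-fold lower fell from 8 to 3 on library totals, 3 at 100 reads and 5 at 1 read, while the number of lists at least 2-fold higher, 12, ranged from 9 to 16 over the alternatives run. Lists with under 3 members got no median. At 100 reads this removed the catecholamine, diencephalic factor, pigment, retina, hox, neutrophil and ionocyte lists. The neural progenitor (-1.23), skeletal muscle (-2.31) and notochord (-1.28) medians stayed at least 2-fold lower there. Among lists with a median of 2-fold or more, those that changed sign were pan-neuronal genes (-0.93 at 100 reads) and catecholamine genes (0.54 at 1 read, 0.15 by whole-gene reads). Medians nearer 0 also changed sign, those of cell cycle (0.23), noradrenergic (0.05) and GABA and glutamate genes (0.46) on library totals, noradrenergic (0.10), GABA and glutamate (0.09) and pronephros genes (-0.31) by whole-gene reads, GABA and glutamate (0.10) and endoderm genes (-0.31) at 1 read, mitochondrially encoded genes (-0.01) at 100 reads and connective tissue genes (-0.02) by unique reads. At 1 read the medians of phagocyte oxidase (0.94), lysosome (0.97), keratin (0.65), pan-neuronal (0.41), hox (-0.87) and diencephalic factor genes (-0.33) were under 2-fold, and those of retina (-1.21), hatching gland (1.14), ionocyte (1.28), endothelial (2.12), macrophage (2.37) and neutrophil genes (2.88) moved by over 1.5-fold toward 0. At 100 reads the macrophage median was 0.36. The gene stmn1b turned to 0.61 by unique reads, where it had 3 against 1. Of 207 recomputed list medians 167 moved by less than 1.5-fold. Ratios of 119 of the named genes were recomputed, and on library totals 86 stayed within their counting interval and 33 did not. By unique reads 112 stayed, and by whole-gene reads 112. All 119 stayed on totals without the 4 leading features and with a prior count of 0.5. A minimum of reads cannot change the ratio of a single gene, so the minima are left out of these counts.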

Other observations

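Further lists held single one-sided genes around medians near 0. Among 30 connective tissue and matrix genes, with a median log2 ratio of 0.08 (0.66 on library totals), hapln1b had 246 reads against 4 and hapln3 27 against 0, both for link proteins that tie hyaluronan to proteoglycans. The fibronectin gene fn1 had 421 against 116, and its relative fn1b, also in the notochord list, 54 against 111. Among amino acid transmitter genes glula, for glutamine synthetase, had 551 against 98 (log2 ratio 2.19), and the glial glutamate transporter gene slc1a3a 11 against 60 (-2.51).

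Germ cell genes had 29 reads against 7 summed over 11 matched members, none of which reached 20 reads. The germ plasm helicase gene vasa held 15 of the 29, with 0 in the GFP-negative library. Over 8 considered genes of endoderm, liver and yolk, 3 were higher by 2-fold or more and 3 lower, among them the lipoprotein gene apobl (4 against 46) and the forkhead factor gene foxa3 (30 against 3), which hatching gland cells also use. The median of 11 mitochondrially encoded genes was 0.46 (1.09 on library totals), and 3 were higher by 2-fold or more. That count is near the share over all genes considered, 22.5%.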
